A study of Mus musculus with 4 samples.

Results

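The Zic genes described here are *Zic1*, *Zic2*, *Zic4* and *Zic5*, 4 of the 46983 genes listed in each of the 4 deposited tables. They were taken by gene symbol, and they were chosen because their RNA was higher in *Shh*-/- larynx than in wild type (WT) in these same libraries, so that difference is described below without a test. The libraries were made from mouse larynx at E10.5 (32 to 35 somites), each from a pool of 3 larynxes, with 2 pools of *Shh*-/- embryos (pools 1 and 2) and 2 pools of Swiss Webster WT embryos (pools 4 and 6). The mutant pools carry the *Shh*tm1amc null allele, kept on a Swiss Webster background. Their genotype label is written as heterozygous (Shh+/-), while the series design and the methods of the study call them *Shh*-/-, and the latter name is used here. The methods of the study call the dissected tissue vocal fold tissue. Each pool mixes embryos, and RNA of such tissue mixes epithelium, mesenchyme, nerve, muscle and vessel cells. More cells of a given type and more RNA per cell therefore cannot be told apart.

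ZIC proteins are zinc-finger transcription factors, named after their expression in the cerebellum, and their fingers resemble those of the GLI proteins that carry the Hedgehog (HH) signal to DNA. In the embryo they are best known from the dorsal neural tube, the neural plate border that gives rise to the neural crest, and the dorsal somite, territories that lie away from the sources of SHH. Loss of *ZIC2* in people, like loss of *SHH*, is a cause of holoprosencephaly, and *Zic1* and *Zic4* act in the cerebellum and *Zic5* in neural crest formation.

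The 4 genes form a pair on chromosome 9 and a pair on chromosome 14, and the members of each pair are read in opposite directions. In the mm10 coordinates of the tables, *Zic1* (ENSMUSG00000032368.14) lies on the minus strand of chromosome 9 from 91358058 to 91365810, and *Zic4* (ENSMUSG00000036972.14) on the plus strand from 91362413 to 91389348. Their spans overlap by 3398 bases, of which 60 are exonic in both genes in GENCODE M21. *Zic5* (ENSMUSG00000041703.7) lies on the minus strand of chromosome 14 from 122456795 to 122465677, and *Zic2* (ENSMUSG00000061524.8) on the plus strand from 122475435 to 122479852, with 9757 bases between them.

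The 250 bases before the annotated start are shown for *Zic1*, *Zic4* and *Zic5*, the 3 genes matched in the RefSeq promoter table (GRCm38.p6), to show the sequence at the starts of genes that were all higher in the *Shh*-/- pools. Each window precedes the RefSeq start, which for all 3 genes lies inside the span listed for the gene. The *Zic4* window is wholly inside that span, and the *Zic1* and *Zic5* windows reach into it in part. Each is written 5′ to 3′ on the strand of its gene, with CpG steps (C followed by G) in capitals.
Zic1 (chr9:91365769-91366018, minus strand): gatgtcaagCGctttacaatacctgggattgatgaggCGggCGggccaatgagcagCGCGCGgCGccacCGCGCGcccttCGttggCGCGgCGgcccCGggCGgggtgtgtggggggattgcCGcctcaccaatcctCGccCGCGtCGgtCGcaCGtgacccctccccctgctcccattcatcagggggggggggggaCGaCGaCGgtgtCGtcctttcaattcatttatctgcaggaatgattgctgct
Zic4 (chr9:91368722-91368971, plus strand): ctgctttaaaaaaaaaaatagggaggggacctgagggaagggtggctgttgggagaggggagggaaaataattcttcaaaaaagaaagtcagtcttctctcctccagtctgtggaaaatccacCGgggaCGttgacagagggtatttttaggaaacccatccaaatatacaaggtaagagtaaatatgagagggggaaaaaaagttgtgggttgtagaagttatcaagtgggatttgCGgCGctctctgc
Zic5 (chr14:122465659-122465908, minus strand): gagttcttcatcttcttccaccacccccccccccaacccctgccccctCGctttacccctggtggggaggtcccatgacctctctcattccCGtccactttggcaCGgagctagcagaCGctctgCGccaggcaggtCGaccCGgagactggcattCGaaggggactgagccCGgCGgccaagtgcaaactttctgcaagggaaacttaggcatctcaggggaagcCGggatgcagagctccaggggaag
The *Zic1* window had 27 CpG steps and 66.0% G or C, the *Zic5* window 11 and 62.4%, and the *Zic4* window 4 and 44.4%. Over the same windows of 32851 annotated starts the median was 6 CpG steps and 52.4% G or C, and 91.4% of the windows had fewer CpG steps than that of *Zic1*, against 64.4% for *Zic5* and 37.8% for *Zic4*. The GLI core GGGTGGTC was not found on either strand of the 3 windows, and neither was the ZIC motif CAGCAGG. Over all annotated starts, 0.703% of windows held the GLI core and 8.44% the ZIC motif, on either strand.

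The levels are in TPM, which the authors' StringTie run gives as a share of each library's transcripts corrected for transcript length. The depth behind each value was derived from the deposited coverage. Coverage times the exonic length of a gene, divided by a read length of 75 nt, gives an approximate number of reads, called read equivalents here. Derived the same way, the libraries held 18291588 and 41712530 aligned reads in *Shh*-/- pools 1 and 2 and 37937824 and 39629415 in WT pools 4 and 6. All 37 mitochondrially encoded genes were listed at 0 in every library, so a listed 0 can be a failed estimate. *Shh* RNA measured 10.4 and 10.8 TPM in *Shh*-/- and 23.7 and 42.1 TPM in WT (log2 difference −1.49, standard error 0.28, adjusted p = 0.0895 from limma), and a value for the whole gene does not say which exons were read. The HH target *Ptch1*, the receptor gene induced by HH signaling, was at 12.9 and 13.8 TPM against 57.8 and 55.1 TPM (log2 difference −2.0, standard error 0.12, adjusted p = 0.0319 from limma).

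*Zic2* had the highest level of the 4 genes in the *Shh*-/- larynx. It measured 8.89 and 6.30 TPM in *Shh*-/- pools 1 and 2, from 157 and 293 read equivalents, and 0.112 and 0.0414 TPM in WT pools 4 and 6, from 3 and 2 read equivalents. The WT pools thus held a handful of *Zic2* reads and both *Shh*-/- pools stood far above them. The *Shh*-/- mean was 7.59 ± 1.83 TPM and the WT mean 0.0767 ± 0.05 TPM (SD, n = 2 pools each). The ratio of reads per aligned read was 116.3, with an exact binomial 95% interval from 49.5 to 360.1 that covers counting error only, and the width of the interval comes from the 5 WT reads. Here and for the other members the interval is no test of the genotypes, because the genes were chosen on this difference and reads were summed over pools. On the log2(TPM + 1) scale, which compresses changes of genes near 0, the difference was 2.98.

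*Zic1* was next. It measured 4.68 and 3.84 TPM in *Shh*-/- pools 1 and 2, from 230.2 and 447 read equivalents, against a listed 0 in WT pool 4 and 0.189 TPM in WT pool 6, from 21.0 read equivalents. The WT pools differed from each other for this gene, and the lower *Shh*-/- pool was still above the higher WT pool by 2.03 on the log2(TPM + 1) scale. The *Shh*-/- mean was 4.26 ± 0.60 TPM and the WT mean 0.0946 ± 0.134 TPM (SD, n = 2 pools each), with a log2 difference of 2.27. The ratio of reads per aligned read was 41.7 (exact binomial 95% interval 27.0 to 67.8, counting error only). The ratio and its interval take the listed 0 of WT pool 4 as 0 reads, and they are too high if that 0 is a failed estimate. The interval does not cover the gap between the WT pools.

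*Zic5*, the neighbor of *Zic2*, was low in every pool. *Shh*-/- pools 1 and 2 gave 1.02 and 0.499 TPM, from 42.8 and 49.4 read equivalents, and WT pools 4 and 6 gave 0.0332 and 0.0159 TPM, from 3 and 1.5 read equivalents. The *Shh*-/- pools differed from each other by a ratio of 2.05, the widest of the 4 genes, and both lay above both WT pools. The means were 0.761 ± 0.371 and 0.0245 ± 0.0122 TPM (SD, n = 2 pools each), a difference of 0.77 on the log2(TPM + 1) scale, and the ratio of reads per aligned read was 23.8 (exact binomial 95% interval 9.83 to 75.0).

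*Zic4*, the neighbor of *Zic1*, had the lowest level. It measured 0.305 and 0.264 TPM in the *Shh*-/- pools, from 6.23 and 13.2 read equivalents, against a listed 0 in WT pool 4 and 0.0260 TPM in WT pool 6, from 1.56 read equivalents. The groups did not overlap, but so few reads leave the size of the difference poorly known. The means were 0.284 ± 0.0289 and 0.0130 ± 0.0184 TPM (SD, n = 2 pools each), a difference of 0.34 on the log2(TPM + 1) scale. The ratio of reads per aligned read was 12.3 with an exact binomial 95% interval from 2.96 to 108.7, and it too takes the listed 0 of WT pool 4 as 0 reads. Part of the exonic sequence of *Zic4* is shared with transcripts of the other strand, 60 bases with *Zic1* and 468 bases with *Gm37477*. The libraries were directional, but the strand setting of the authors' counting is not given in the sources used here.

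**Figure D1:**
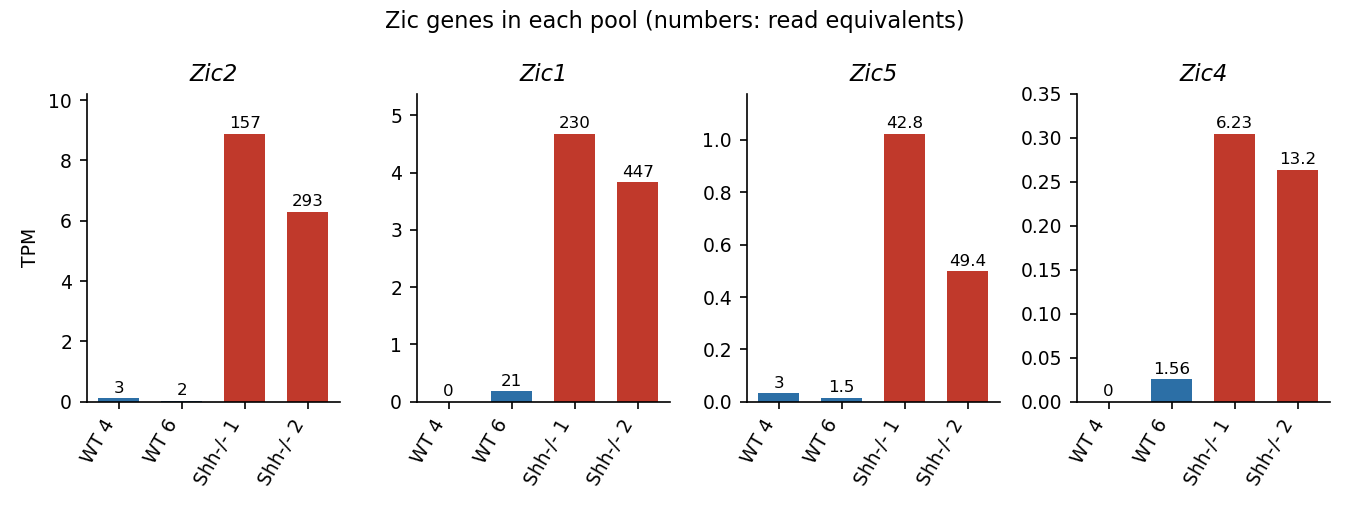
Level of *Zic2*, *Zic1*, *Zic5* and *Zic4* in TPM (vertical axes, each from 0 and on its own scale) in WT pools 4 and 6 (blue) and *Shh*-/- pools 1 and 2 (red), with the read equivalents behind each value above its bar. Each bar is 1 pool of 3 larynxes. Every red bar exceeds both blue bars of its panel, and no WT value exceeds 0.189 TPM.

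In both *Shh*-/- pools the order of the levels was *Zic2*, *Zic1*, *Zic5*, *Zic4*. The lowest *Zic2* pool was above the highest *Zic1* pool, the lowest *Zic1* pool above the highest *Zic5* pool, and the lowest *Zic5* pool above the highest *Zic4* pool. In WT no such order could be read. *Zic1* and *Zic4* were each listed at 0 in pool 4 and had reads in pool 6, whereas *Zic2* and *Zic5* had more in pool 4 than in pool 6. Within the chromosome 9 pair *Zic1* was 15.4 and 14.6 times the TPM of *Zic4* in the *Shh*-/- pools. Within the chromosome 14 pair *Zic2* was 8.68 and 12.6 times the TPM of *Zic5*. The counting intervals of the *Shh*-/- to WT read ratios overlapped between every pair of the 4 members. Overlap by itself does not show that ratios are alike, and their order was not tested.

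Each of the 4 members was higher in *Shh*-/- pool 1 than in pool 2, by ratios of 1.41 for *Zic2*, 1.22 for *Zic1*, 1.16 for *Zic4* and 2.05 for *Zic5*. Of all tested genes, 57.9% were higher in pool 1 than in pool 2. Pool 1 was the least deeply sequenced library. Without it, the difference from WT on the log2(TPM + 1) scale was 2.15 for *Zic1*, 2.76 for *Zic2*, 0.32 for *Zic4* and 0.55 for *Zic5*, and without pool 2 it was 2.38, 3.20, 0.36 and 0.98.

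Of the 4 members, *Zic1* and *Zic2* had a mean TPM of at least 1 and entered the comparison of all genes, and *Zic4* and *Zic5* did not. For all 4, each *Shh*-/- pool lay above each WT pool, the pattern they were chosen for. It was shared by 38.0% of the tested genes, by 16.3% of the 11552 genes with a mean TPM under 1 that were above 0 somewhere, and by 29.2% of all 28524 genes above 0, and 60.7% of the tested genes had no overlap between the genotypes in one direction or the other. In limma on log2(TPM + 1), 0.725% of the 16972 tested genes passed an adjusted p of 0.05, 0.56% as higher and 0.165% as lower in *Shh*-/-, and the median log2 difference of all tested genes was 0.08.

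No difference between the genotypes was called for the tested genes around the Zic loci. The tables list 34 other genes within 500 kb of the 2 pairs, and 11 of them were tested. None of the 11 passed in limma (0 were called, against 0.725% of all tested genes, and 0 had an unadjusted p under 0.05, against 24.8%), so the count of calls by itself does not set so few genes apart. Their log2 differences ran from −0.16 to 0.23 with adjusted p from 0.456 to 0.91. On the chromosome 14 side these were *Ubac2*, *Gpr183*, *A330035P11Rik*, *Tm9sf2*, *Gm6254*, *Gm17082*, *Clybl*, *Pcca*, *Ggact* and *Tmtc4*. *Clybl*, a mitochondrial enzyme gene on the *Zic5* side, was at 16.7 and 14.2 TPM in *Shh*-/- and 19.6 and 14.1 TPM in WT. *Pcca*, which encodes a subunit of propionyl-CoA carboxylase and is the nearest tested gene beyond *Zic2*, was at 25 and 22.4 TPM in *Shh*-/- and 26.7 and 26.3 TPM in WT. The chromosome 9 pair had few expressed neighbors. Of 15 genes listed there 3 were above 0 in any library, and the tested one, *Gm5620*, was at 254.4 and 253.8 TPM in *Shh*-/- and 243.7 and 252.8 TPM in WT.

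Some low transcripts directly beside or inside the Zic genes are named here after their values were seen. *2610035F20Rik* (chromosome 14, 122470284 to 122475199, minus strand) lies between *Zic5* and *Zic2*. Its 5′ end, at 122475199, is 236 bases before the listed start of *Zic2*, and it is read away from *Zic2*. *Shh*-/- pools 1 and 2 gave 0.579 and 0.369 TPM for it, from 5.84 and 9.99 read equivalents, and it was listed at 0 in both WT pools. *Gm37477* (chromosome 9, 91380519 to 91381402, minus strand) lies inside *Zic4* on the other strand, and it was at 0.902 and 0.218 TPM in *Shh*-/- and 0.0596 and 0.114 TPM in WT, from 7, 4, 1 and 2 read equivalents. *Gm10837*, 10734 bases beyond the listed end of *Zic2*, reached at most 0.0742 TPM. These levels are a few reads each and were not tested.

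**Figure D2:**
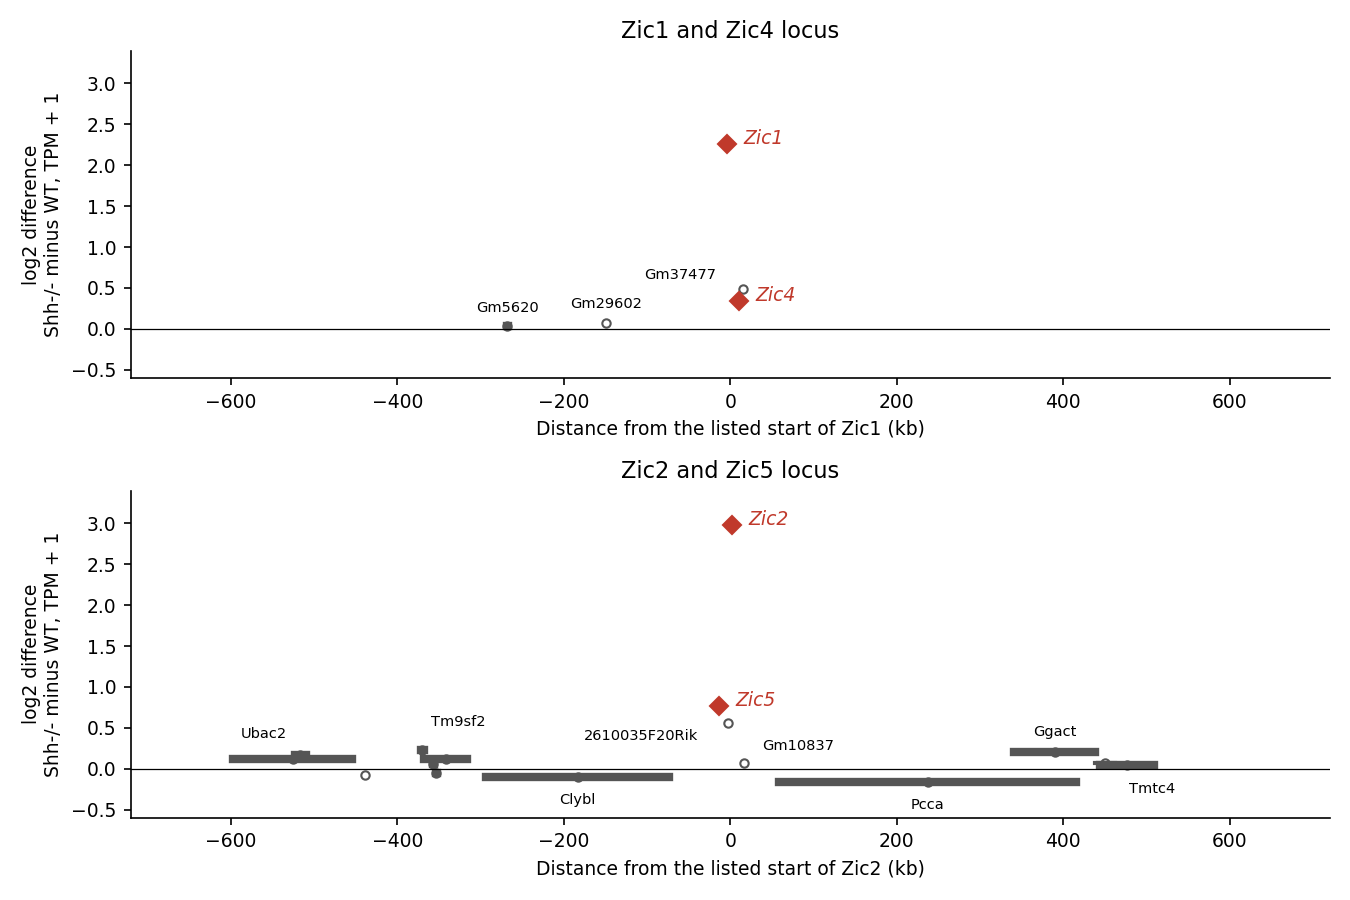
Difference between *Shh*-/- and WT on the log2(TPM + 1) scale (vertical axis) for genes above 0 in any library within 500 kb of each Zic pair, against distance in kb from the listed start of *Zic1* (top) or *Zic2* (bottom), increasing with the chromosome coordinate. Red diamonds are the Zic genes, thick grey bars with filled circles are tested genes, and thin bars with open circles are genes with a mean TPM under 1. *Zic2* stands at 2.98 and *Zic1* at 2.27, while the tested neighbors stay between −0.16 and 0.23.

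The genes whose pattern over the 4 libraries was most like that of *Zic1* or *Zic2* were found by Euclidean distance between log2(TPM + 1) values centred on the WT mean, over all tested genes. They were picked on the same comparison, and their values are given without a test. Nearest to *Zic1* were *Gm22760* (distance 0.14), *Dab1* (0.23), *Wnt6* (0.27), *Gm5766* (0.29) and *Ebf2* (0.29). *Dab1*, the adaptor of Reelin signaling, was at 11.3 TPM in each *Shh*-/- pool and 1.4 and 1.5 TPM in WT. *Wnt6*, a Wnt ligand gene of surface ectoderm, was at 20.5 and 15.7 TPM against 3.13 and 2.84 TPM, and *Ebf2*, an early B-cell factor family gene, at 15.5 and 13.4 TPM against 2.23 and 1.94 TPM. *Gm5766* was close to *Zic1* in level, at 5.40 and 4.21 TPM against 0.170 and 0.0861 TPM, while *Gm22760*, *Dab1*, *Wnt6* and *Ebf2* stood above 1 TPM in both WT pools.

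Nearest to *Zic2* were *Crym* (distance 0.19), *Cyp26a1* (0.30), *Gm17084* (0.33), *Cyp26c1* (0.36) and *Tlx3* (0.37). *Cyp26a1* and *Cyp26c1* encode enzymes that break down retinoic acid. *Cyp26a1* measured 37.0 and 24.2 TPM in *Shh*-/- and 2.50 and 2.35 TPM in WT. *Cyp26c1* came closest to *Zic2* in level, at 8.15 and 4.83 TPM against a listed 0 and 0.116 TPM. *Tlx3*, a homeobox gene of sensory neurons, was at 12.6 and 9.54 TPM against 0.740 and 0.165 TPM, and *Crym*, the gene of μ-crystallin, at 69.6 and 46.1 TPM against 6.52 and 5.31 TPM.

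**Figure D3:**
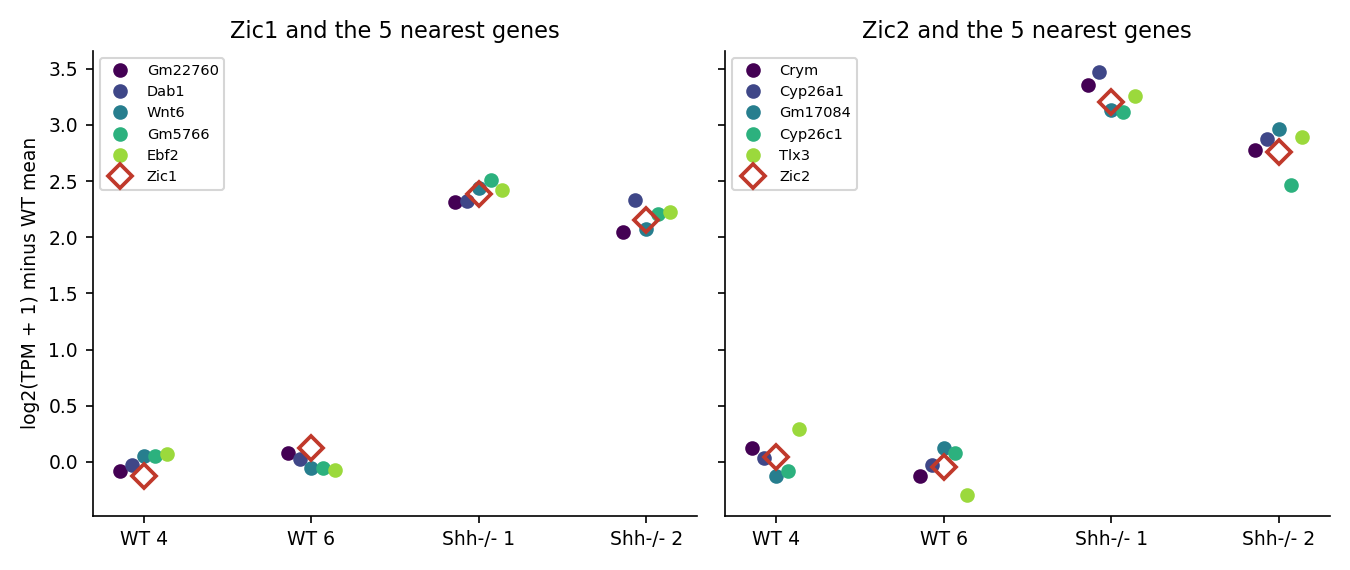
Values of log2(TPM + 1) minus the mean of the WT pools (vertical axis) in each of the 4 pools for *Zic1* (left) and *Zic2* (right), drawn as open red diamonds, and for the 5 tested genes nearest to each (filled circles, offset sideways). *Zic1* lies near 2.4 in *Shh*-/- pool 1 and 2.2 in pool 2, with the higher value in pool 1 as for *Zic2*.

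Of 6 genes of the related GLI and GLIS families 4 were tested and 0 passed, against 0.725% of all tested genes. A count of 0 among so few genes says little. Their median log2 difference was 0.36. *Gli1*, itself a target of HH signaling, was at 3.20 and 8.45 TPM in *Shh*-/- and 41.7 and 32.9 TPM in WT (adjusted p = 0.0715 from limma). *Gli3*, which encodes the main repressor of the pathway, was at 33.9 and 32.0 TPM against 25.7 and 24.8 TPM (adjusted p = 0.155 from limma), and *Gli2* at 21.9 and 16.5 against 14.1 and 9.45 TPM (adjusted p = 0.188 from limma). Of 8 HH target genes, all tested, 4 fell (*Ptch1*, *Hhip*, *Foxf2* and *Foxl1*) and 0 rose, while 0.165% of all tested genes passed as lower. For all 8 each *Shh*-/- pool was below each WT pool, a pattern of 22.7% of the tested genes.

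Among 11 genes known as partners or targets of ZIC proteins, 10 were tested, and *Pax3* alone passed, as higher, against 0.56% of all tested genes. *Pax3*, a paired-box factor that acts with *Zic1* at the neural plate border and marks dorsal neural tube and dermomyotome, rose from 0.270 and 0.0392 TPM in WT to 3.77 and 3.85 TPM in *Shh*-/- (log2 difference 2.07, standard error 0.23, adjusted p = 0.047 from limma). Its levels in both groups are close to those of *Zic1*. For 8 of the 10 each *Shh*-/- pool lay above each WT pool, against 38.0% of all tested genes, and the median log2 difference was 0.60. *Apoe*, described as a ZIC target, was at 93.7 and 101.7 TPM in *Shh*-/- and 264.2 and 63.0 TPM in WT, where the pools stood apart.

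Markers of cell types that are known to express Zic genes were measured in the same pools, and their part in the difference of the Zic genes was not tested. In the list of roof plate and dorsal neural tube genes, 5 of 12 were tested, *Pax3* rose and 0 fell, and the summed level was 67.9 to 112.2 TPM in *Shh*-/- and 22.0 to 34.8 TPM in WT. Most of the *Shh*-/- sum came from *Msx1*, also a mesenchymal gene (74.6 and 36.3 TPM, against 9.02 and 3.47 TPM in WT, adjusted p = 0.0784 from limma). The defining genes *Wnt1* and *Atoh1* were listed at 0 in all 4 pools, and *Wnt3a* and *Gdf7* did not exceed 0.108 TPM. Of 10 neural progenitor genes 8 were tested and 0 passed, with summed levels of 223.7 to 264.2 TPM in *Shh*-/- and 170.8 to 190.1 TPM in WT, and *Sox1*, which marks the neural tube, reached at most 0.0102 TPM. Of 12 neural crest genes 11 were tested and *Ngfr* alone passed, as higher, with summed levels of 252.8 to 292.3 TPM against 179.5 to 218.0 TPM. Of 13 somite, dermomyotome and sclerotome genes 10 were tested and *Pax3* alone passed, and *En1* was listed at 0 throughout. The summed levels of this list were 94.2 to 115.6 TPM against 45.6 to 50.5 TPM. Part of the *Shh*-/- sum came from *Pax1*, which the study used as a marker of pharyngeal pouches. It was at 30.05 and 9.67 TPM, against 1.08 and 0.400 TPM in WT (adjusted p = 0.0736 from limma). Each *Shh*-/- pool was above each WT pool for 4 of 5 tested genes of the roof plate list and 6 of 8 of the progenitor list. The same held for 9 of 11 of the neural crest list and 7 of 10 of the somite list, against 38.0% of all tested genes. In each of these lists 1 tested gene was the other way. Of all tested genes, 0.56% passed as higher and 0.165% as lower, so 0 or 1 call in lists this short says little.

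The remaining lists held genes that differed in either direction, and list genes given here that neither passed nor were among the most abundant were named after their values were seen. Of 12 neuron genes, all tested, 6 rose (*Stmn2*, *Tubb3*, *Elavl3*, *Gap43*, *Nefl* and *Prph*) and 0 fell, with summed levels of 912.7 to 991.0 TPM in *Shh*-/- and 274.9 to 326.6 TPM in WT. For 11 of the 12 each *Shh*-/- pool was above each WT pool. Of all tested genes, 0.56% passed as higher and 38.0% had each *Shh*-/- pool above each WT pool. *Isl1*, a homeobox gene of motor and sensory neurons, was the other way, at 68.3 and 57.3 TPM against 93.1 and 115.7 TPM (adjusted p = 0.104 from limma). *Myh6* and *Myh7*, which encode cardiac myosin heavy chains, rose among 8 muscle genes, with summed levels of 148.3 to 203.5 TPM against 68.3 to 72.7 TPM. Of the 8, 5 had each *Shh*-/- pool above each WT pool, against 38.0% of all tested genes, and *Myod1* and *Myog* overlapped. The cardiac factor gene *Nkx2-5* was the other way, at 5.97 and 4.73 TPM against 18.5 and 13.6 TPM (adjusted p = 0.0697 from limma). Among 8 foregut mesenchyme genes *Twist1* alone passed, as higher, and the summed levels were 608.3 to 684.0 TPM against 445.6 to 470.3 TPM. That sum came mostly from *Col1a2*, *Prrx1*, *Twist1* and *Pdgfra*, and the list median was −0.03. *Foxf1*, an HH target of foregut mesenchyme, was at 0.848 and 9.57 TPM against 72.3 and 64.6 TPM (adjusted p = 0.0976 from limma). *Tbx5* and *Osr1* also had each *Shh*-/- pool below each WT pool, a pattern of 22.7% of all tested genes. Of the tested genes, 0 of 9 for foregut epithelium, 0 of 4 for surface ectoderm, 0 of 5 for endothelium, 0 of 2 for ventral neural tube and 0 of 2 for macrophages passed in limma. Of all tested genes 0.725% passed, so a count of 0 in lists this short says little. For all 5 endothelial genes each *Shh*-/- pool was above each WT pool, against 38.0% of all tested genes. The summed levels were 248.5 to 284.8 TPM in *Shh*-/- and 166.2 to 172.1 TPM in WT for endothelium, 6.41 to 11.9 TPM against 45.5 to 46.9 TPM for ventral neural tube, most of it from *Foxa2*, also a foregut gene, and 15.7 to 16 TPM against 14.8 to 25.8 TPM for surface ectoderm. The epithelial genes *Epcam*, *Krt8* and *Krt18* were between 84.0 and 132.7 TPM in every pool, with each *Shh*-/- pool above each WT pool. *Foxa2*, *Nkx2-1*, *Foxa1* and *Cdh1* of the same list had each *Shh*-/- pool below each WT pool. Of all tested genes, 38.0% had the former pattern and 22.7% the latter. *Nkx2-1*, a factor of the respiratory epithelium, was at 6.16 and 3.61 TPM against 15.9 and 17.9 TPM (adjusted p = 0.0715 from limma). The summed levels of the genotypes overlapped for foregut epithelium, at 587.0 to 663.7 TPM in *Shh*-/- and 622.1 to 622.5 TPM in WT, and for macrophage genes, at 4.40 to 5.06 TPM and 4.01 to 6.63 TPM.

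The calls among these lists are fragile at 2 pools a group. In all, 11 list genes passed as higher and 4 as lower, of 95 tested, and with any 1 of the 4 pools left out 0 of them passed in either direction. With a pseudocount of 0.1 *Pax3* had an adjusted p of 0.0787, and with no minimum on TPM an adjusted p of 0.146.

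**Figure D4:**
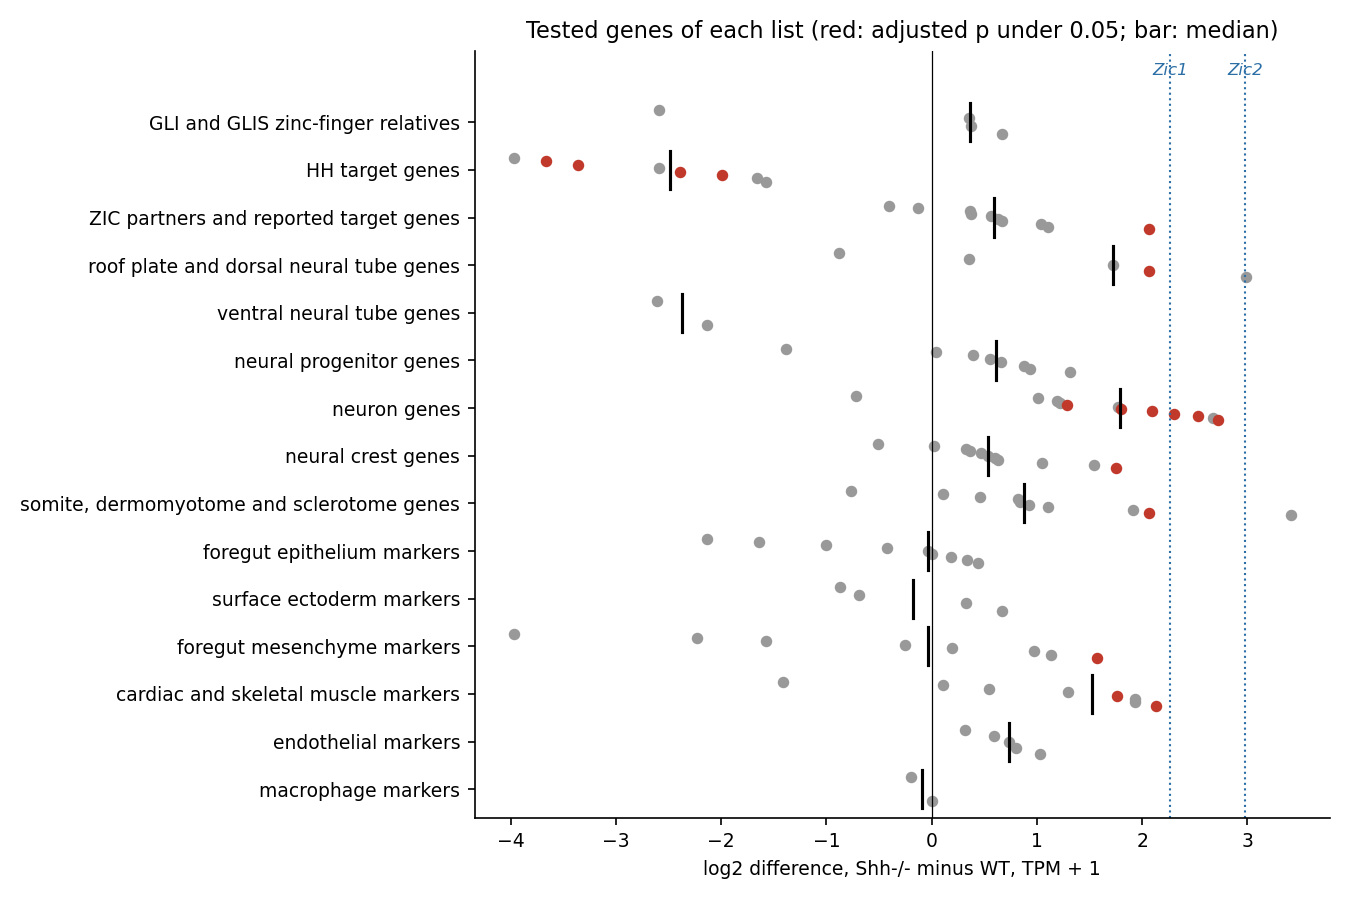
Difference between *Shh*-/- and WT on the log2(TPM + 1) scale (horizontal axis) for the tested genes of each list, 1 point a gene, red where the limma adjusted p was under 0.05 and grey otherwise, with the list median as a black bar. Dotted lines mark *Zic1* at 2.27 and *Zic2* at 2.98. HH target genes lie at the left with a median of −2.49, and the neuron list has the most red points on the right.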

How the data were processed

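Single-end reads of directional poly(A) libraries were mapped by the authors with HISAT2 2.1.0 (mm10) and summarised per gene with StringTie 1.3.6. The deposited tables give TPM, FPKM and coverage per gene; the authors' TPM is FPKM scaled to a fixed sum in each library, the deposited FPKM corrects for length and library depth, and the deposited coverage signal is mean read depth without scaling between libraries. Count tables were not analysed here. TPM was summed per gene ID. Genes averaging 1 TPM or more were compared as log2(TPM + 1) with limma 3.58.1 in R 4.3.3 (eBayes with trend, Benjamini-Hochberg over all tested genes, threshold 0.05), with no covariates, and the script was tested on simulated data. P-values set the genotype difference against the spread between 2 pools per genotype, which limma moderates toward a trend over all tested genes. Intervals of read ratios are exact binomial and cover counting error only. A read length of 75 nt gave the most whole reads (within 0.02) among low-coverage genes with 1 transcript, on average 26.5% of them against 13.4% at the next best length, so read equivalents (from GENCODE M21 exon lengths) are approximate. Named genes were the 4 Zic genes, tested genes within 500 kb, list genes that passed or were among the 4 highest of their list by mean TPM, and the 5 nearest genes by pattern. Defining markers at or near 0, low transcripts beside the Zic genes and list genes that went against their list were named in addition, after their values were seen. The Zic members and the gene lists were chosen with earlier results of these data known, and the lists are from textbook knowledge. Alternatives were a pseudocount of 0.1 or 0.01, other minimums on TPM, quantile normalization, median centring, FPKM, eBayes without trend and each pool left out. A planned result is not reported here.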

Additional observations from a re-analysis of the deposited data

How the results depend on the processing

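Each of the 4 Zic genes stayed higher in *Shh*-/- under each alternative run. For *Zic1*, *Zic2*, *Zic4* and *Zic5* in that order, the log2 difference was 4.67, 5.45, 1.77 and 2.72 with a pseudocount of 0.1, 6.57, 6.56, 3.95 and 4.44 with 0.01, and 1.56, 2.17, 0.18 and 0.43 with FPKM. Median centring gave 0.21 for *Zic4*. Quantile normalization was run on tested genes only and gives no value for *Zic4* or *Zic5*. No paired analysis was possible because the 2 genotypes share no pool number.

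Of all tested genes, 95 passed as higher and 28 as lower, against 53 and 16 with a pseudocount of 0.1, 0 and 0 with no minimum on TPM (3372 and 1639 at an unadjusted p under 0.05) and 63 higher with a minimum of 5. With 1 pool left out, 0 to 4 passed as higher and 0 to 12 as lower (up to 2618 and 1143 at an unadjusted p under 0.05), where the lone pool is assumed to vary like the other genotype. Of list genes, 11 passed as higher and 4 as lower, against 6 and 1 with a pseudocount of 0.1, 0 and 0 with no minimum on TPM, 5 higher with eBayes without trend, and 0 in either direction with any 1 pool left out. Of the genes beside the Zic loci 0 passed under each alternative.

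Some values near 0 changed sign. Median centring gave −0.010 for *Tm9sf2*, −0.088 for *Tmtc4*, −0.007 for *Ubac2*, −0.095 for *Gm5620* and −0.067 for *Gm6254*, and quantile normalization −0.062 for *Tmtc4* and −0.066 for *Gm6254*. With 1 pool left out the values ran from −1.428 to 0.623 for *Apoe*, −0.074 to 0.311 for *Tm9sf2*, −0.326 to 0.124 for *Clybl*, −0.183 to 0.263 for *Tmtc4*, −0.114 to 0.514 for *Ggact*, −0.028 to 0.271 for *Ubac2*, −0.029 to 0.364 for *Gpr183* and −0.148 to 0.044 for *Gm17082*. The cause was not tested. Depth limits the Zic values most in WT, where 0 to 21.0 read equivalents lie behind each.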
